A study of Canis lupus familiaris with 2 samples.

Results

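5 of the 291 dog miRNAs on the array were examined here, cfa-miR-140, cfa-miR-143, cfa-miR-145, cfa-miR-199 and cfa-miR-214. They are known from mesenchymal cells, which build smooth muscle, connective tissue and cartilage. The rule that picked them used their names and no measured value, but it was set with earlier results of these data known. Serum came from male dogs of 2 months of age, 3 normal dogs and 3 dystrophic dogs. The dystrophic dogs were CXMD_J dogs, which carry canine X-linked muscular dystrophy and serve as a model of Duchenne muscular dystrophy. The 3 sera of each condition were mixed before RNA was prepared, and each mixture was hybridized to 1 chip with 1 spot per dog miRNA. Differences between dogs were therefore not measured, no replicate error exists and no p-value is given. Fewer releasing cells and less RNA released per cell are only some of the possible sources of a lower level in serum. The sources cannot be told apart here.

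miR-143 and miR-145 are made from neighboring genes in smooth muscle and other mesenchymal cells, where they promote the contractile state. miR-199 and miR-214 are expressed in fibroblasts, and in many organs their levels rise with fibrosis. miR-140 is known as a cartilage miRNA. All 5 names matched RefSeq genes of the assembly UU_Cfam_GSD_1.0, 7 genes in total. MIR143 and MIR145 lay next to each other with 0 other genes between them. MIR214 and MIR199-2 were also neighbors with 0 genes between them, inside the span of DNM3, which encodes a dynamin. The other copies, MIR199-1 and MIR199-3, lay inside the spans of the dynamin genes DNM2 and DNM1. The array has 1 spot for miR-199, so the copies cannot be told apart. MIR140 lay inside the span of WWP2, which encodes a ubiquitin ligase.

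The signal of a spot was its brightness above the mean of the 1408 blank spots of the array, after trimming 5% of them at each end. A miRNA was taken as detected above that mean plus 2 SD, a spot brightness of 126 for normal and 124 for dystrophic serum. On each array the signals were then multiplied by 1 factor that brought the median of its detected dog miRNAs to 25. The error was taken from other spots of the same array, namely the SD of all blank spots, 7.27 and 7.19, together with a coefficient of variation of 6.67% between the 8 spots of bright control probes. It gives a 95% noise interval that covers spot noise alone, not dogs, RNA preparations, arrays or the scale factors. 4 of the 5 miRNAs were detected on the normal array, where 54.6% of the 291 dog miRNAs were, and the same 4 on the dystrophic array, where 64.6% were.

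The spot of miR-140, the cartilage miRNA, read 404 for normal and 279 for dystrophic serum before background subtraction, and 0 blank spots were as bright on either. The scaled signal was 297 in normal serum (noise interval 255 to 339) and 135 in dystrophic serum (114 to 156), and these intervals did not overlap. The dystrophic over normal ratio was 0.454, with a noise interval from 0.366 to 0.560, the 5th lowest of the 142 dog miRNAs detected in both sera. With quantile normalization it held place 14 of the 142, and under the other settings that kept 142 miRNAs it held places 3 to 7. Without any scaling between the arrays the ratio was 0.571, with a noise interval from 0.460 to 0.704.

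The spot of miR-145, the smooth-muscle miRNA, read 189 for normal and 161 for dystrophic serum. No blank spot was as bright on the normal array and 3 blank spots, 0.213% of them, were on the dystrophic array. Of the 181 spots named as holding no probe, 0 and 5 were at least as bright, and of the 32 negative-control spots 0 and 0 were. The scaled signal was 73.6 in normal serum (55.9 to 91.3) and 37.2 in dystrophic serum (24.6 to 49.8), again without overlap. The ratio was 0.506, with a noise interval from 0.318 to 0.755. Without scaling it was 0.636 (0.400 to 0.950). The spot next to it carried miR-133a, a miRNA of skeletal muscle, which read 132 for normal and 2455 for dystrophic serum.

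miR-143 was not detected in either serum. Its spot read 122 on the normal array, where 272 blank spots (19.3%) were at least as bright, and 123 on the dystrophic array, where 138 (9.80%) were. No ratio was formed. The scaled detection limits were 8.19 and 6.81, so a level below these was not detectable. Of this pair of neighboring genes, miR-145 was thus detected in serum and miR-143 was not. The array does not allow the levels of different probes to be compared.

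The miRNAs of the other pair of neighboring genes had ratios on opposite sides of 1. The scaled signal of miR-199 was 25.5 in normal serum (10.3 to 40.7) and 12.8 in dystrophic serum (1.06 to 24.6), and these intervals overlapped. Its ratio was 0.504, with a noise interval from 0.0410 to 1.52 that includes 1. The spot lay close to background. It read 142.5 and 131, and at least as bright were 22 blank spots (1.56%) in the array of normal serum and 44 (3.13%) in that of dystrophic serum. Of the 181 spots named as holding no probe, 8 and 22 were at least as bright, and of the 32 negative-control spots 6 and 19 were.

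miR-214, which shares its locus with MIR199-2, had a scaled signal of 38.8 in normal serum (23.2 to 54.5) and 45.1 in dystrophic serum (32.0 to 58.1). The ratio was 1.16 with a noise interval from 0.717 to 2.05, which includes 1. Its place was 80th of 142 from the lowest. Its spot read 155 and 170, and 10 and 3 blank spots were at least as bright. So were 4 and 3 of the spots without a probe, and 1 and 0 of the negative-control spots. The ratio fell below 1, to 0.954, when the scale was set on miRNAs detected in both sera, and to 0.943 with quantile normalization.

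**Figure D1:**
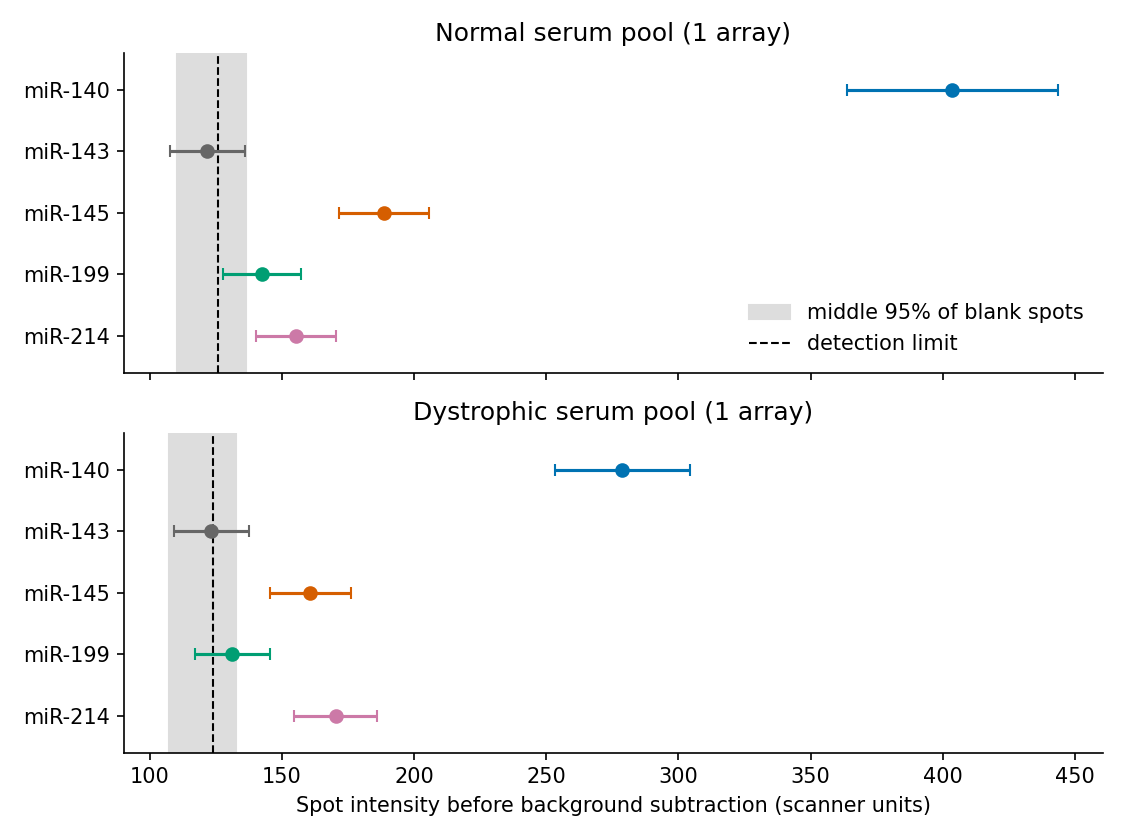
Spot intensity of the 5 miRNAs before background subtraction, on the array of normal serum (top) and of dystrophic serum (bottom). Points are single spots, bars are 95% spot noise, the gray band holds the middle 95% of the blank spots and the dashed line is the detection limit. miR-143 lies below the limit on both arrays, and miR-140 is at 404 and 279.

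Of the 4 miRNAs with a ratio, 1 (miR-140) was at 0.5 or less, a limit that 5.63% of the 142 dog miRNAs detected in both sera reached. The ratios of miR-199 and miR-145, 0.504 and 0.506, lay just above that limit. None was above 2, compared with 13.4% of all. In number, 8 of the 142 were at 0.5 or less and 19 were above 2, a split that moved to 3 and 34 without scaling, 3 and 39 with spike controls, 19 and 12 with the scale set on miRNAs detected in both sera, and 22 and 10 with quantile normalization. 3 of the 4 were below 1, compared with 41.5%, and for 2 of the 4 the whole noise interval was below 1, compared with 9.15%. The last share is not a like comparison, because bright spots have narrower intervals. The 2, miR-140 and miR-145, had signals of 297 and 73.6 in normal serum, where the median of detected dog miRNAs was set to 25. The median ratio of the 4 was 0.505 and that of all 142 was 1.09. These counts describe 4 spots on each of 2 arrays.

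**Figure D2:**
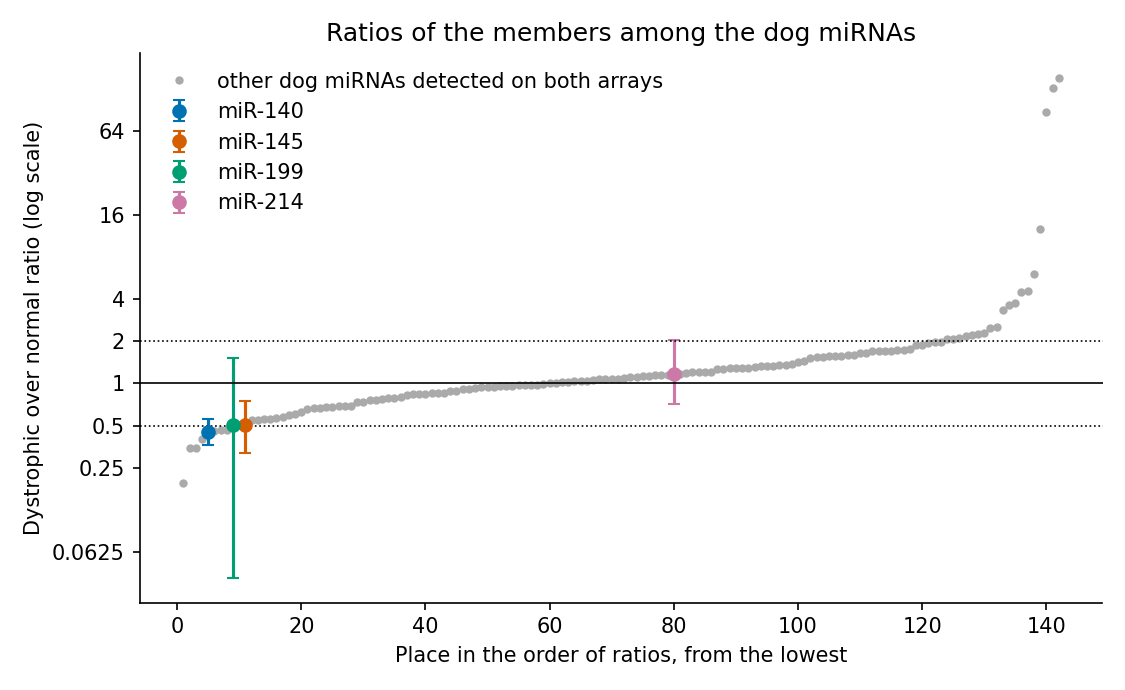
Dystrophic over normal ratio (log scale) of the 142 dog miRNAs detected on both arrays, in order from the lowest. Colored points are the 4 miRNAs described here with their 95% noise intervals, and dotted lines mark ratios of 0.5 and 2. miR-140, miR-199 and miR-145 hold places 5, 9 and 11, and miR-214 holds place 80.

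How far these miRNAs differed from each other was examined in the ratio of their ratios, in which the scale factor of each array cancels. Of the 6 pairs, 2 had a noise interval that left out 1, and both involved miR-214. The ratio of miR-214 was 2.56 times that of miR-140 (noise interval 1.49 to 4.39) and 2.30 times that of miR-145 (1.20 to 4.39). Without background subtraction these factors were 1.59 and 1.29, and with normexp background correction 1.91 and 1.53. Against miR-199, the miRNA of the neighboring gene, it was 2.30 times as large, but with an interval from 0.693 to 7.66. miR-145 and miR-140 differed by a factor of 1.11 (0.699 to 1.78). For miR-199 the factor was 1.11 over miR-140 (0.364 to 3.38) and 0.996 over miR-145 (0.309 to 3.21), intervals too wide to place it beside or apart from either.

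The scanner also read a local background for each spot, which was not used for the ratios. It rises with the spot itself (r = 0.969 and 0.976 across the 3200 spots of the normal and the dystrophic array, log values, spots not being independent replicates). It was therefore not taken as an independent measurement, and why it rises with the spot was not tested. The local background of miR-140 read 388 for normal and 224 for dystrophic serum, and that of miR-145 222 and 151. On the normal array the local background of miR-145 was thus brighter than its spot, which read 189. Whether the bright miR-133a spot beside miR-145 added to its local background in dystrophic serum was not tested. The local background of blank spots averaged 77.9 and 81.8. The excess over these means had an unscaled dystrophic over normal ratio of 0.459 for miR-140 and 0.481 for miR-145. It was 0.675 for miR-199 and 1.04 for miR-214. For miR-143, which was not detected by its spot, the excess was 0.0531 for normal and 18.4 for dystrophic serum. These are only 0.00536 and 2.09 SD of the local background of blank spots, and no ratio was formed. Without scaling, the order in the local background was thus miR-140, miR-145, miR-199 and miR-214 from the lowest, and miR-214 alone was above 1. The scale factor of the spots, 0.795 for dystrophic over normal, would bring miR-214 below 1 as well. No noise interval was computed for these ratios. The excess of miR-199 and miR-214 was small, 3.04 to 4.94 SD of the local background of blank spots.

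Of 11 other miRNAs associated with connective tissue, 10 were on the array and 7 were detected in both sera. Their median ratio was 1.27, with 5 ratios above 1 and 2 below, 1 at 0.5 or less and 1 above 2. The noise interval left out 1 for miR-22 alone. miR-22 had scaled signals of 37.4 and 171 and thus a ratio of 4.57 (noise interval 3.11 to 7.96). Which cells released miR-22 was not tested, so its ratio cannot be read as that of connective tissue. miR-125b and miR-99a had ratios of 1.11 (0.797 to 1.58) and 1.27 (0.769 to 2.39). For miR-29c, of a family that represses collagen genes, the ratio was 1.35 with an interval from 0.358 and no upper limit. Below 1 were miR-21, which is raised in many fibrotic tissues, at 0.403 with an interval from 0 to 1.66, and miR-29a, at 0.862 with an interval from 0.0823 to 53.0. miR-152, miR-218 and miR-335 were detected in neither serum, and miR-100 was not matched to a spot.

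Blood cells also release miRNAs into serum. Of the 5 red-cell miRNAs listed, 4 were on the array and 2 were detected in both sera. miR-451, of red cells, had scaled signals of 1276 and 250 and a ratio of 0.196 (0.161 to 0.237), and miR-16 had a ratio of 0.346 (0.258 to 0.450). The summed signal of the detected red-cell miRNAs was 1457 in normal (2 miRNAs) and 324 in dystrophic serum (3 miRNAs), most of it from miR-451. Such sums, here and below, follow the brightest probes, because levels of different probes are not comparable. miR-144, also of red cells, was detected in neither, and miR-185 in dystrophic serum alone. The 2 red-cell miRNAs detected in both sera, miR-451 and miR-16, thus had ratios below 1, as miR-140 and miR-145 did, while miR-185 passed the detection limit only in dystrophic serum. The part of red-cell miRNAs in the differences of miR-140 and miR-145 was not tested.

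The 4 platelet miRNAs had summed detected signals of 725 and 652. miR-24 had a ratio of 1.07 (0.884 to 1.29), miR-223 one of 0.549 (0.436 to 0.686) and miR-191 one of 0.756 (0.463 to 1.23), whereas miR-126 was detected in neither serum. Among the leukocyte miRNAs 3 of 5 were detected in both sera. The ratio of miR-150, of lymphocytes, was 0.743 (0.542 to 1.02), and that of miR-142 was 2.24 with an interval from 0.858 upward. miR-155 and miR-146a were detected in neither serum. The detected leukocyte miRNAs, miR-223 among them, had summed signals of 306 and 207. Platelet and leukocyte miRNAs therefore held values on both sides of 1, but the intervals of those above 1, miR-24 and miR-142, included 1. The interval left out 1 for miR-223 alone, which is in both lists and was below 1. The part of platelet and leukocyte miRNAs in the differences of miR-140 and miR-145 was not tested.

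The skeletal-muscle miRNAs were the other way around from miR-140 and miR-145. 4 of 5 were detected in both sera, all 4 above a ratio of 2. The summed signal of the detected ones was 67.7 in normal (4 miRNAs) and 6616 in dystrophic serum (5 miRNAs). Most of the latter came from miR-133a, miR-133b and miR-133c, at 1934, 2426 and 2097. miR-1 passed the detection limit in dystrophic serum only. For the liver, miR-122 and miR-192 had ratios of 0.943 and 0.889, the former with an interval from 0 and without an upper limit and the latter with one from 0.428 to 1.97, and miR-194 was detected in neither serum.

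**Figure D3:**
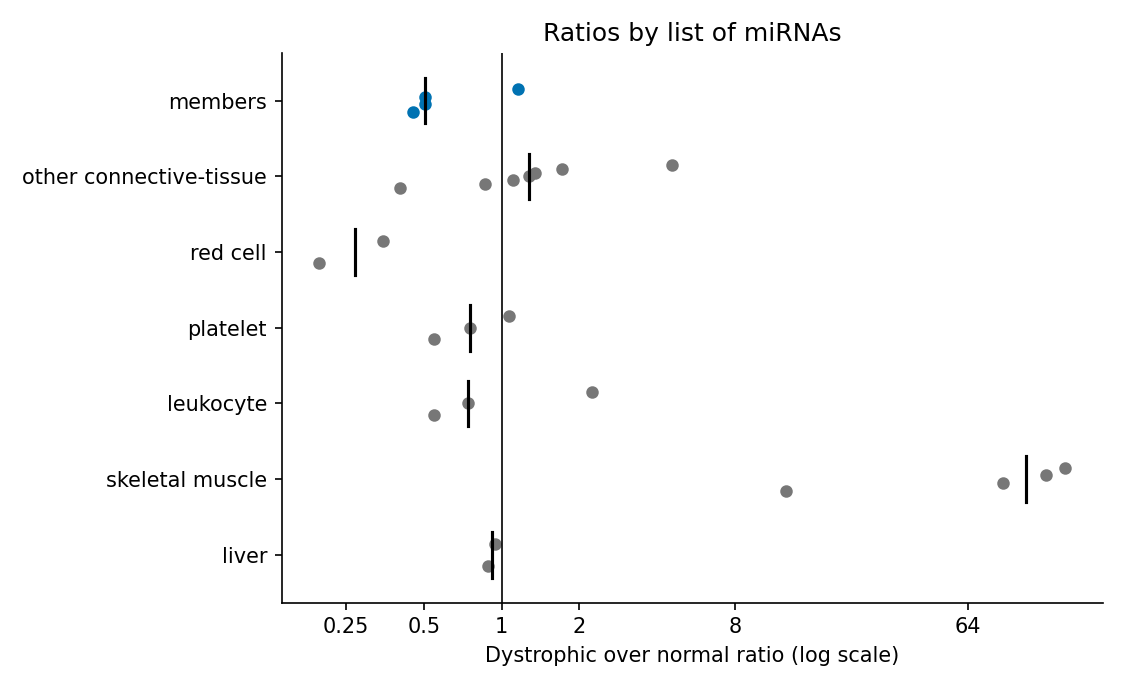
Dystrophic over normal ratios (log scale) of the miRNAs of each list that were detected on both arrays, 1 point for each miRNA, with a bar at the median. The 4 points of the miRNAs described here, labelled members, have a median of 0.505, the other connective-tissue miRNAs one of 1.27 and the red-cell miRNAs one of 0.271.

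The sizes of the ratios depended on the processing, as the ratios under other settings show. miR-140, miR-145 and miR-199 stayed below 1 under every setting that gave them a ratio. The range was 0.373 to 0.672 for miR-140, 0.360 to 0.829 for miR-145 and 0.386 to 0.896 for miR-199, while miR-214 ran from 0.943 to 1.498. The number of the 4 at a ratio of 0.5 or less ran from 0 to 3. Some settings could not change the ratio of miR-140. The deposited values are the same signals rounded, and a limit set on low signals left it at 0.454. It stayed at 0.5 or less under detection at 3 SD (0.418) and quantile normalization (0.427). The same held with scaling on miRNAs detected in both sera (0.373) or the 75th percentile (0.440). In the remaining 7 of its 14 alternatives it was above 0.5, at 0.527 to 0.672.

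**Figure D4:**
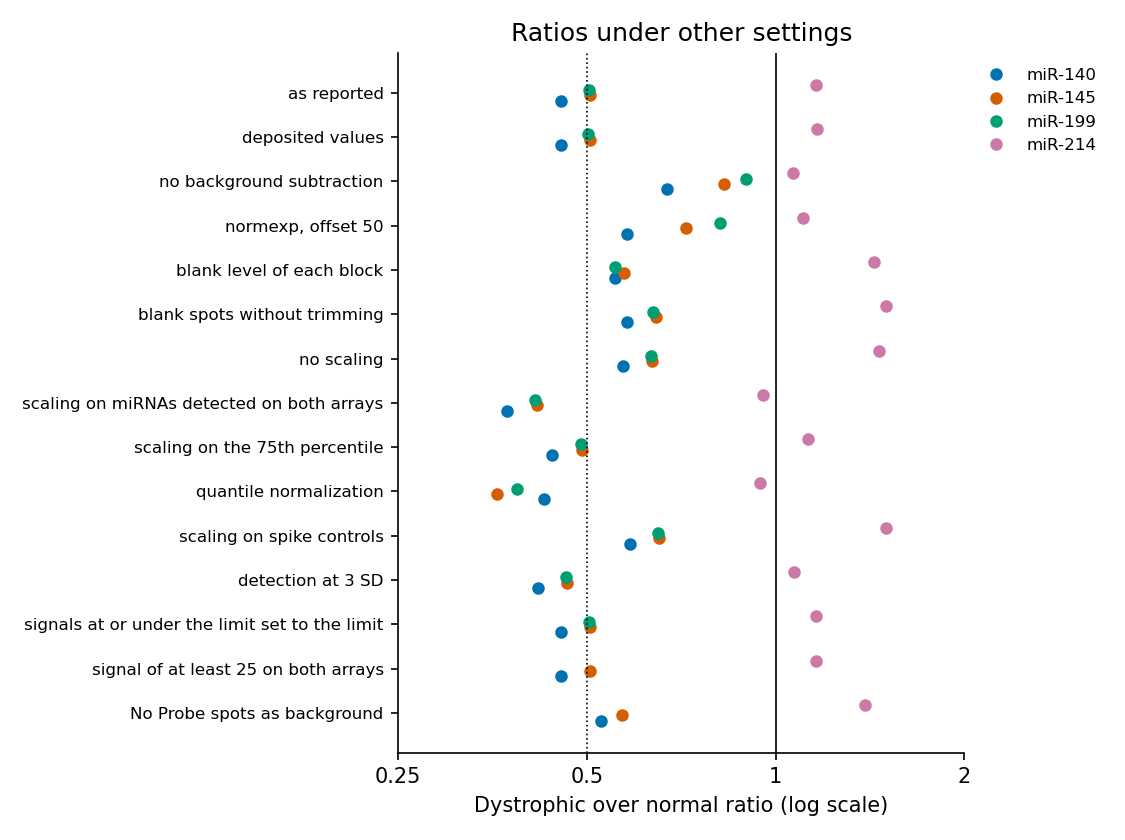
Dystrophic over normal ratios (log scale) of the 4 detected miRNAs as reported and under each other setting that gave a ratio. Solid and dotted lines mark ratios of 1 and 0.5. miR-140, miR-145 and miR-199 lie below 1 throughout, and miR-214 lies between 0.943 and 1.498.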

How the data were processed

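RNA of each serum pool was labelled with Cy5 and hybridized to a 3D-Gene chip. The authors deposited the median intensity of each spot and of its local background at 635 nm, unnormalized, together with the globally normalized intensity of each detected miRNA rounded to 1 decimal. 3D-Gene Extraction was used by the authors, and its settings were not given in the sources used here. The values were recomputed from the scanner intensity, with the groups taken from the labels. The recomputed signals differed from the deposited table by at most 0.0498 units, and the same miRNAs were detected. A spot marked as unusable at all 3 scanner gains was not counted as detected. This applied to none of the 5 miRNAs. The noise interval of a ratio was computed by Fieller's method and that of a ratio of ratios by the delta method. The coefficient of variation came from 10 control probes with a signal 5 times or more that of the detection limit. The interval of a single ratio was tested on simulated data, and that of a ratio of ratios was not. The simulated noise had the form that the interval assumes, with a smaller coefficient of variation. The test therefore cannot show that real spots follow this form. The number of arrays limits the precision.

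The miRNAs and the lists were chosen with earlier results of these data known. All 5 miRNAs are named, with the neighbors in the order of ratios, the markers of other cells and up to 4 of the brightest connective-tissue miRNAs. miR-21 lay next to miR-140 in that order, and miR-29a was named after its value was seen. 14 alternatives from the list written at the outset were run, and background from spots without a probe was added after seeing the data. Normexp was run with limma and an offset of 50. The software was limma 3.58.1 in R 4.3.3, and numpy 2.4.6, pandas 2.3.3 and matplotlib 3.10.9 in Python 3.11.15.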

Additional observations from a re-analysis of the deposited data

How the results depend on the processing

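miR-140 was at 0.5 or less as reported, and in 7 of its 14 alternatives, not all able to change it. Its ratio left the noise interval without background subtraction (0.672), with normexp and an offset of 50 (0.579), with untrimmed blank spots (0.580), without scaling (0.571) and with scaling on the spike controls (0.585). The ratio of miR-145 left it without background subtraction (0.829). A background left in both signals or an added offset draws a ratio toward 1 by construction. Leaving out the scaling, or scaling on the spike controls, changes only the factor that all miRNAs of an array share. For untrimmed blank spots the cause was not tested. The ratio of miR-214 reversed when miRNAs detected in both sera set the scale (0.954) and with quantile normalization (0.943), within its noise interval. The number of miRNAs at 0.5 or less was 1 as reported. It was 3 with these same settings, with scaling on the 75th percentile and with detection at 3 SD. It was 0 without background subtraction, with normexp, with the blank level of each block, with untrimmed blank spots, without scaling, with the spike controls and with the spots without a probe as background. The median log2 ratio of the dog miRNAs detected on both arrays, 0.13 as reported, moved by -0.39 (quantile) to 0.37 (spike controls) over the same 142 miRNAs under the other scalings. Local background, which rises with the spot, left 0 of the 5 miRNAs detected in normal and 1 in dystrophic serum, hence 0 at 0.5 or less and 0 below 1. miR-199 had no ratio under a minimum signal of 25 or when spots without a probe gave the background. miR-143 was detected with the blank level of each block, on the dystrophic array alone. The 45 ratios of ratios under the alternatives all lay within their noise intervals, though detection at 3 SD only repeats the reported values. The lowest for miR-214 over miR-140 and over miR-145 were 1.59 and 1.29, without background subtraction. Another scanner gain was not run, because the files hold only marks of usability for each gain. No replicate could be left out. No paired analysis was possible because neither serum was measured on a second array. miR-143 and miR-199 were limited by their low signal over background.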

Other observations

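With 2 arrays, likeness between miRNAs can be given only as nearness in 1 ratio, as a description over the 142 dog miRNAs detected in both sera. Next to miR-140 in the order of ratios lay miR-21, at 0.403, and miR-106a, at 0.459 with a noise interval from 0.178 to 0.881. miR-199 lay between miR-15a, at 0.466 with an interval from 0 to 3.77, and miR-370, at 0.505. miR-370 also lay next below miR-145, and with scaled signals of 2976 and 1502 it had a narrow interval, from 0.419 to 0.608. Next above miR-145 was miR-20b, at 0.548 (0.149 to 1.33). miR-214 lay between miR-350, at 1.16 (0.372 to 10.9), and miR-125a, at 1.17 (0.650 to 2.43).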
